A study of Astyanax mexicanus with 12 samples.

Results

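The 72 genes described here are named for proteins of the mitochondrial ribosome. They were measured in livers of Astyanax mexicanus, the Mexican tetra, which lives as eyeless cavefish and as sighted surface fish. They are the rows of the deposited abundance table whose name, read without regard to case, begins with mrpl or mrps and a digit, which gives 72 of 27420 genes. All 72 reached 1 TPM (an abundance scaled by transcript length and library total) in at least 3 libraries, so all 72 are among the 12895 genes tested. By what is known of their mammalian counterparts, 47 belong to the large subunit and 24 to the small subunit. The gene mrps36 is assigned to neither, because its mammalian protein is a component of the 2-oxoglutarate dehydrogenase complex. It matches the name rule and is kept in the sums, medians and counts of the 72. The names mrps30 and mrps18a are historical, since both proteins sit in the large subunit. No row carried the names mrpl27, mrpl33, mrpl50, mrpl55, mrps12 or mrps31, and these are not analysed here.

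Livers of adult fish were sampled after a 12 h fast, 3 in each of 4 groups: cavefish caught in the wild, laboratory cavefish, surface fish caught in the wild and laboratory surface fish. The cavefish libraries are titled Pachón, the name of a cave. No allele or treatment other than form, origin and the shared fast is named, while sex, body size, capture site and batches of sequencing are not stated in the sources used. Because wild-caught and laboratory fish may differ in stock as well as in surroundings, those causes cannot be told apart. Nothing says whether libraries of a group came from separate tanks or captures, so p-values measure the spread between these samples.

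The mitochondrial ribosome is a separate translation machine inside the organelle. It makes only the few inner-membrane subunits of the respiratory chain and of ATP synthase that are encoded by mitochondrial DNA, while its own proteins are encoded in the nucleus, made by cytosolic ribosomes and imported. Part of these proteins descend from bacterial ribosomal proteins and part were added in the mitochondrial lineage. The liver is rich in mitochondria, and its ribosomes in the cytosol, which share no protein genes with the mitochondrial ones, make the bulk of its secreted proteins.

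TPM values sum to the same total in every library and do not keep depth, so read numbers are unknown. A larger share for one group of genes thus lowers the TPM of the others. The median log2 difference of all 12895 tested genes was -0.46 between wild-caught cave and surface livers and -0.69 between wild-caught and laboratory cave livers, against 0.10 between laboratory cave and surface livers and -0.11 between wild-caught and laboratory surface livers. Counts and medians of the 72 genes are therefore given also relative to that median and after median-of-ratios scaling, which centres every library on those genes that no library lists at 0, and single genes where the scaling changes a call. The hepatocyte markers summed to between 93600 and 169200 TPM in the 12 libraries, so the labelled tissue was present in each. Surface wild libraries 1 and 2 stood apart on the first principal component of all tested genes, with scores of 113 and 101 against -61.5 to 37.3 in the other 10. The counts of members called on TPM that rest on them are given with and without them. Counts of members after scaling, of libraries without overlap and of group order are given only with them. With both left out, surface wild library 3 stands alone in its group and is assumed to vary like the other groups.

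The mitochondrial ribosomal protein genes took the largest share of the library in wild-caught surface livers. Their summed share was 0.208%, 0.245% and 0.175% in the 3 surface wild libraries. It was 0.169%, 0.167% and 0.108% in the surface lab libraries. On the full library total all 3 surface wild libraries lay above every other library, the nearest being cave wild library 1. The cave wild libraries gave 0.171%, 0.0999% and 0.109%, and the cave lab libraries 0.101%, 0.112% and 0.113%. Cave wild library 1 thus stood well above its group, while the 3 cave lab libraries lay close together. With a library total without cytosolic ribosomal protein genes, the surface wild libraries no longer stood apart. Cave wild library 1 was then at 0.2601%, above surface wild libraries 1 and 3 at 0.2575% and 0.2268%.

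Set against the rest of the transcriptome the picture in cave livers changed. The median of the 72 genes, divided by the corresponding median over all tested genes, was 6.73, 2.93 and 3.42 in cave wild livers. It was 1.67, 1.85 and 2.01 in cave lab livers. Both wild-caught groups stood above their laboratory counterpart on this ratio, with no overlap. In surface wild livers the ratio was 5.58, 6.12 and 4.34, and in surface lab livers 3.19, 2.52 and 1.93. The lowest ratios of all were those of the cave lab libraries and surface lab library 3.

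The 77 cytosolic ribosomal protein genes followed another order. Their summed share was 34.3%, 31.2% and 34.0% in cave wild livers and 15.6%, 20.2% and 21.5% in cave lab livers. It was 19.4%, 19.6% and 22.7% in surface wild livers and 14.3%, 10.8% and 16.0% in surface lab livers. Here the cave wild livers, not the surface wild livers, were the highest. In summed TPM the cytosolic genes exceeded the mitochondrial ones 200.5-fold, 312.8-fold and 312.7-fold in cave wild livers. The ratio was 154.5, 180.3 and 189.7 in cave lab livers, 93.3, 80.1 and 129.2 in surface wild livers, and 84.6, 64.9 and 147.6 in surface lab livers. Every cave library lay above every surface library on this ratio, which does not depend on how the libraries are scaled.

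**Figure D1:**
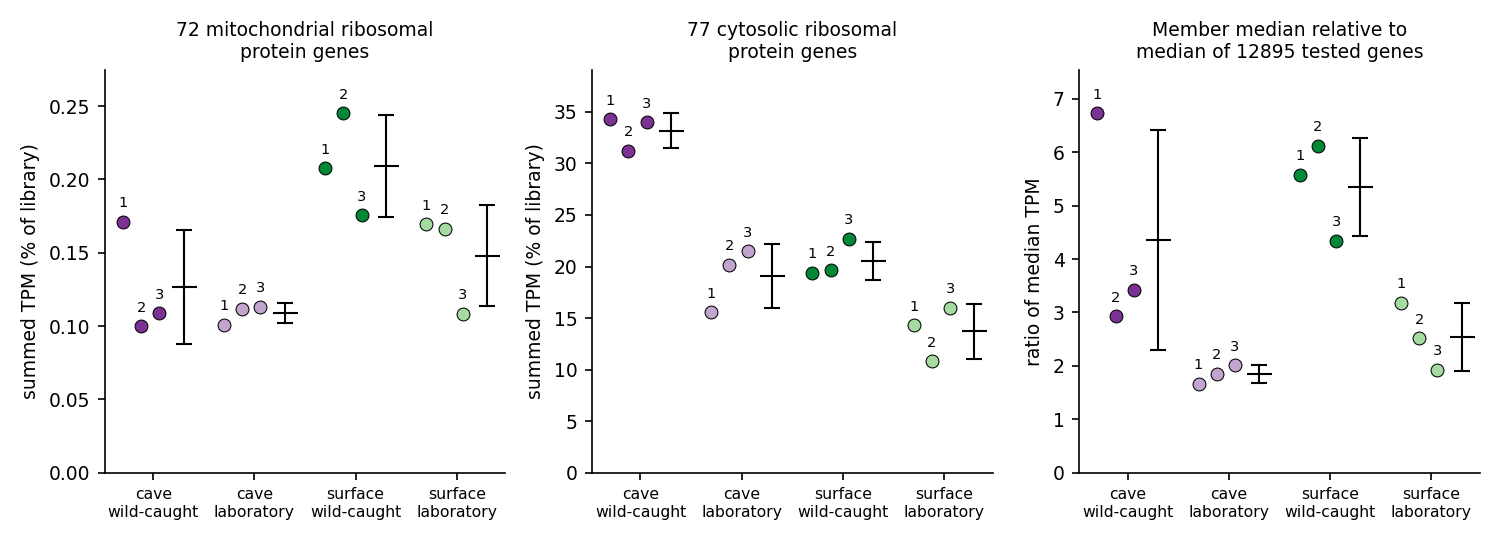
Summed TPM of the 72 mitochondrial (left) and 77 cytosolic (middle) ribosomal protein genes as a percentage of the library, and the median TPM of the 72 genes divided by that of the 12895 tested genes (right). Points are libraries with their replicate number, and the bar beside them is the mean ± SD of 3. Surface wild libraries are highest on the left, cave wild libraries in the middle, and both wild-caught groups lie above their laboratory counterpart on the right.

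The genes did not contribute equally. Mean TPM over the 12 libraries ran from 2.68 for mrpl36 to 142.3 for mrps25, with a median of 14.7, against 4.67 for all tested genes and 1784 for the cytosolic ribosomal protein genes. The 5 highest genes held 29.6% of the summed mean TPM. They were mrps25 and mrps21 of the small subunit, at 142.3 and 67.7 TPM, and mrpl41, MRPL49 and mrpl57 of the large subunit, at 85.3, 78.8 and 64.7 TPM. The 5 lowest were all large-subunit genes, mrpl36, mrpl13, mrpl32, mrpl35 and mrpl1, at 2.68, 2.71, 2.80, 2.95 and 2.96 TPM. TPM is scaled per length, so these levels may be set side by side between genes. They depend, however, on the transcript lengths of an annotation that is not stated.

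The most abundant gene was out of step between the surface groups but not between cave and surface livers. There its log2 differences were -0.77 ± 0.36 in wild-caught and -0.66 ± 0.36 in laboratory fish (adjusted p = 0.121 and 0.346, limma). The values of mrps25 (ENSAMXG00000019894) were 135, 80.2 and 92.0 TPM in cave wild and 104, 112 and 112 TPM in cave lab livers. They were 127, 188 and 211 TPM in surface wild and 181, 253 and 113 TPM in surface lab livers. Its wild-caught and laboratory surface libraries overlapped, and the log2 difference was -0.01 ± 0.36 (adjusted p = 0.986, limma). MRPL49 (ENSAMXG00000003487) was also out of step, at 94.7, 89.8 and 94.8 TPM in cave wild and 62.1, 76.0 and 89.0 TPM in cave lab livers. In surface livers it stood at 70.3, 66.7 and 83.6 TPM in wild-caught and 104, 40.9 and 73.6 TPM in laboratory fish. It was the only one of the 72 whose cave wild TPM values all lay above the surface wild ones, as did 7.61% of all tested genes, and the log2 difference of 0.34 ± 0.35 missed the threshold (adjusted p = 0.475, limma). The small-subunit gene mrps24 was erratic, listed at 0 in cave wild library 3, surface wild library 1 and surface lab library 2 and at 0.96 to 7.53 TPM in the other libraries, so its differences have the widest error of the 72.

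Most members nevertheless shared one profile. The mean TPM was highest in surface wild livers for 64 of 72 genes (88.9%), against 32.2% of all tested genes, and lowest in cave lab livers for 45 (62.5%), against 9.38%. After median-of-ratios scaling surface wild livers were highest for 47 genes (65.3%, all genes 33.8%) and cave wild livers for the other 25 (34.7%, all genes 20.2%). On that scale cave lab livers were lowest for 67 genes (93.1%, all genes 29.1%). The place of cave wild livers in the order thus depended on the scaling, while cave lab livers were lowest for most members on both scales. The share of genes lowest there rose with scaling among all tested genes too.

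Single libraries also moved the genes together. Cave wild library 1 held the highest of the 3 cave wild values for 63 of 72 genes (87.5%), against 23.7% of all tested genes, and for 68 after scaling. Surface lab library 3 held the lowest of the 3 surface lab values for 64 genes (88.9%, all genes 50.4%), and for 45 after scaling (62.5%, all genes 33.9%). Surface wild library 3 held the lowest value of its group for 51 genes (70.8%, all genes 45.3%), and for 41 after scaling (56.9%, all genes 39%). Cave lab library 1 was the lowest of its group for 40 genes (55.6%, all genes 40.8%), and for 42 after scaling (58.3%, all genes 41.3%). In each of the 4 groups, therefore, a single library lay to one side of the others for over 50% of the genes on both scales, and the 72 are not independent replicates of a condition. Which library held the highest of all 12 values depended on the scale. On TPM it was surface wild library 2 for 44 genes (61.1%, all genes 12.9%), but after scaling for 23 (31.9%, all genes 13.1%), when cave wild library 1 was the highest for 39 (54.2%, all genes 10.8%). The summed TPM of large-subunit genes exceeded that of small-subunit genes by a ratio between 1.30 and 1.59 in every library. Both ends of this range were surface wild libraries, 3 and 1. Because 5 genes held 57.2% of the small-subunit summed mean TPM, the ratio does not show whether the subunits moved together.

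**Figure D2:**
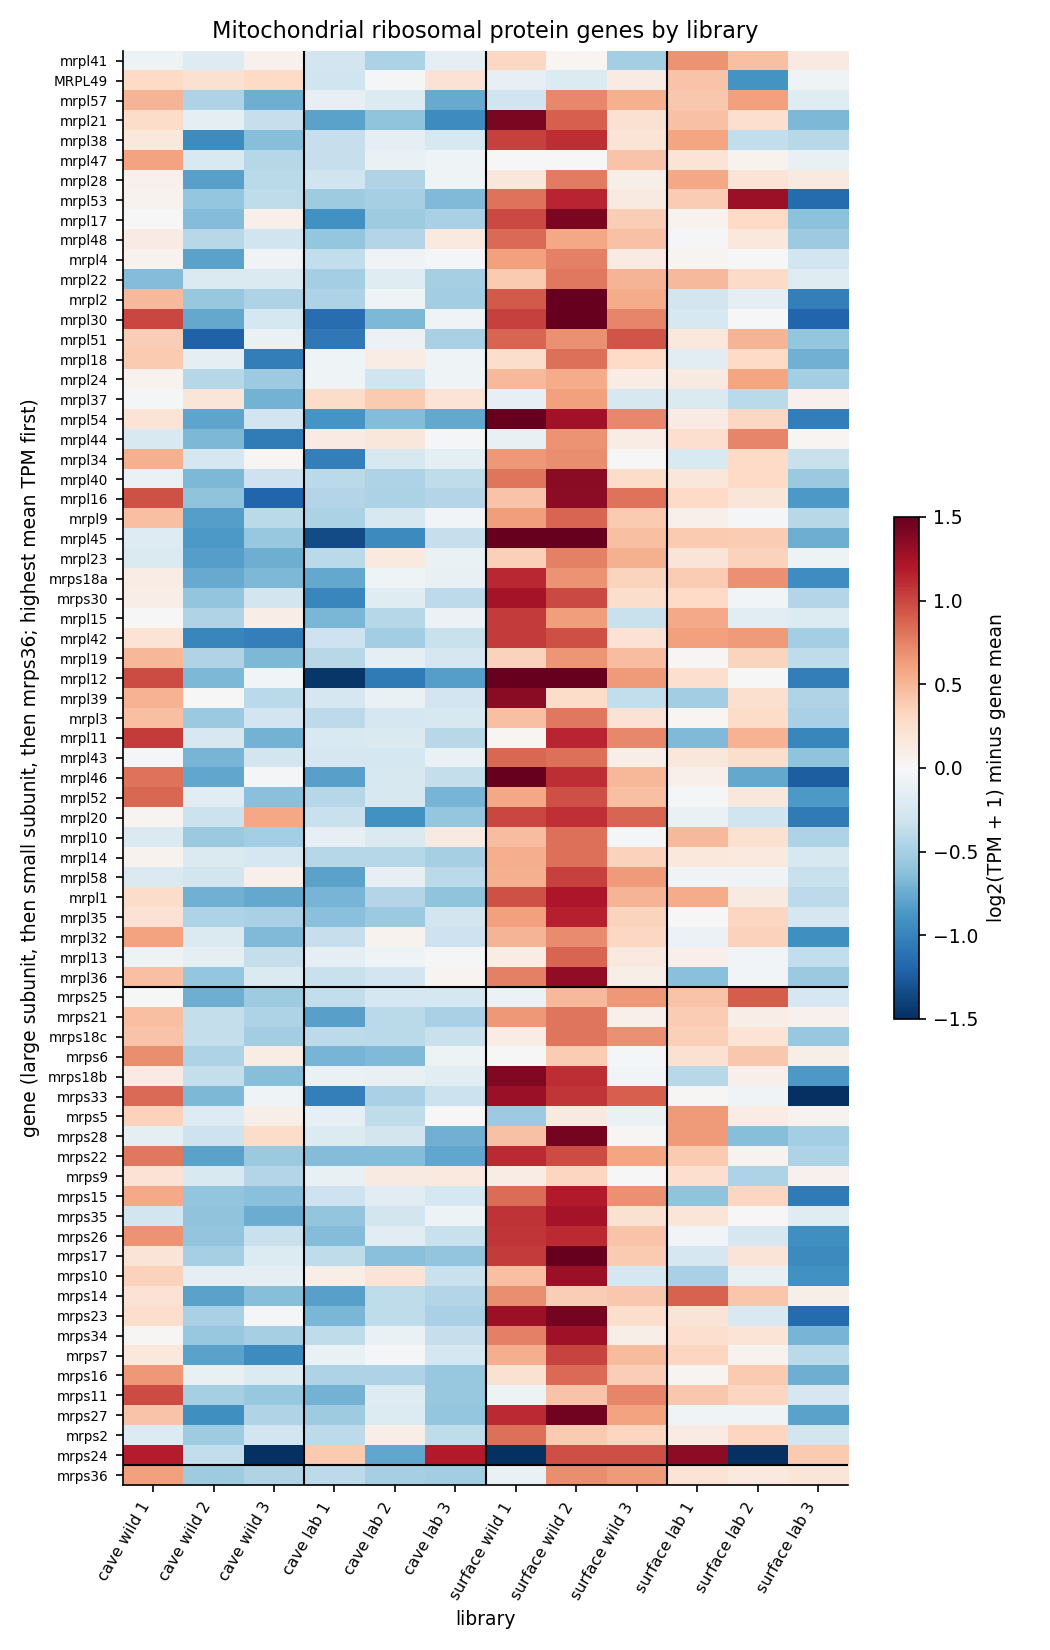
Values of log2(TPM + 1) minus each gene's mean for the 72 genes (lines, large subunit first, then small subunit, then mrps36) in the 12 libraries (columns), with the colour scale ending at ±1.5. Surface wild libraries 1 and 2 and cave wild library 1 are mostly red, cave lab libraries and surface lab library 3 mostly blue, and mrps24 swings between both.

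Some of these genes were higher in wild-caught than in laboratory surface livers. In limma, fitted to all tested genes with p adjusted over them and a threshold of 0.05, 14 of the 72 genes were higher in wild-caught surface livers and 0 lower. That is 19.4% of the members, against 6.77% of all tested genes called higher and 11.2% lower. Of the 72, 28 had an unadjusted p under 0.05 (38.9%, all genes 35.4% in either direction), and 69 had a difference above the median of all genes. Their median log2 difference was 0.67, or 0.79 above the median of all tested genes. After median-of-ratios scaling 20 genes were higher (27.8%, all genes 9.48%), and these included all 14, with adjusted p from 0.00859 to 0.0368. The TPM values of wild-caught and laboratory surface libraries did not overlap for 31 genes (43.1%), all higher in wild-caught fish, against 10.6% of all tested genes.

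The largest rise was in mrpl46 (ENSAMXG00000030876), a protein of the central protuberance, the crown of the large subunit. It stood at 20.3, 12.9 and 8.16 TPM in surface wild and 5.83, 2.81 and 1.75 TPM in surface lab livers, a log2 difference of 1.75 ± 0.46 (adjusted p = 0.025, limma). In cave livers it was at 10.4, 2.76 and 5.37 TPM in wild-caught and 2.67, 4.47 and 4.07 TPM in laboratory fish. The surface groups did not overlap and the cave groups did.

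The gene mrpl20 (ENSAMXG00000035403), the counterpart of a bacterial large-subunit protein needed for assembly, had the smallest adjusted p. Its values were 9.24, 9.92 and 8.36 TPM in surface wild and 3.77, 3.17 and 1.44 TPM in surface lab livers, a log2 difference of 1.48 ± 0.31 (adjusted p = 0.0117, limma). The 3 wild-caught values were close together and well above every laboratory value. In cave livers mrpl20 stood at 4.26, 3.10 and 6.62 TPM in wild-caught and 3.06, 1.73 and 2.42 TPM in laboratory fish, also without overlap. It was the only one of the 14 that passed whichever of the 12 libraries was left out.

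The stalk protein mrpl12 (ENSAMXG00000032543), whose bacterial counterpart recruits translation factors to the ribosome, stood at 26.7, 26.4 and 13.0 TPM in surface wild livers. Its surface lab values were 9.77, 8.03 and 3.38 TPM, and the log2 difference was 1.55 ± 0.47 (adjusted p = 0.0414, limma). The groups did not overlap. Its partners in the stalk missed the threshold, mrpl11 with a difference of 1.00 ± 0.49 (adjusted p = 0.165, limma) and mrpl10, which anchors the stalk, with 0.34 ± 0.30 (adjusted p = 0.443).

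Next to the peptidyl transferase centre, where the peptide bond is made, sits mrpl2 (ENSAMXG00000021532). It was at 33.4, 52.3 and 25.8 TPM in surface wild and 14.0, 15.6 and 7.97 TPM in surface lab livers, a log2 difference of 1.49 ± 0.39 (adjusted p = 0.0252, limma). The lowest wild-caught value lay clearly above the highest laboratory value. The small-subunit gene mrps33 (ENSAMXG00000043198), a mitochondria-specific addition, stood at 55.9, 47.9 and 42.1 TPM against 22.4, 21.3 and 7.19 TPM (1.60 ± 0.47, adjusted p = 0.0376, limma). The large-subunit gene mrpl30 (ENSAMXG00000005341) stood at 34.1, 50.3 and 27.4 TPM against 13.5, 16.1 and 6.51 TPM (1.59 ± 0.49, adjusted p = 0.0439, limma). In both, surface lab library 3 was the lowest of the 6 libraries by a wide margin.

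The other 8 genes that passed were mrpl54, mrps23, mrps17, mrps27, mrps15, mrps26, mrpl36 and mrpl58, some of them named here only because they complete the set. Their log2 differences ran from 0.88 ± 0.24 for mrpl58, a peptidyl-tRNA hydrolase built into the ribosome that releases stalled chains, to 1.46 ± 0.41 for mrpl54. The wild-caught and laboratory surface values did not overlap in any of the 14 genes. The neighbouring genes mrps11 and mrpl46 lie side by side in the RefSeq annotation. In contrast to the rise of mrpl46, mrps11 was at 4.91, 7.36 and 9.35 TPM in surface wild and 7.25, 6.78 and 4.23 TPM in surface lab livers, a log2 difference of 0.20 ± 0.41 (adjusted p = 0.753, limma).

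**Figure D3:**
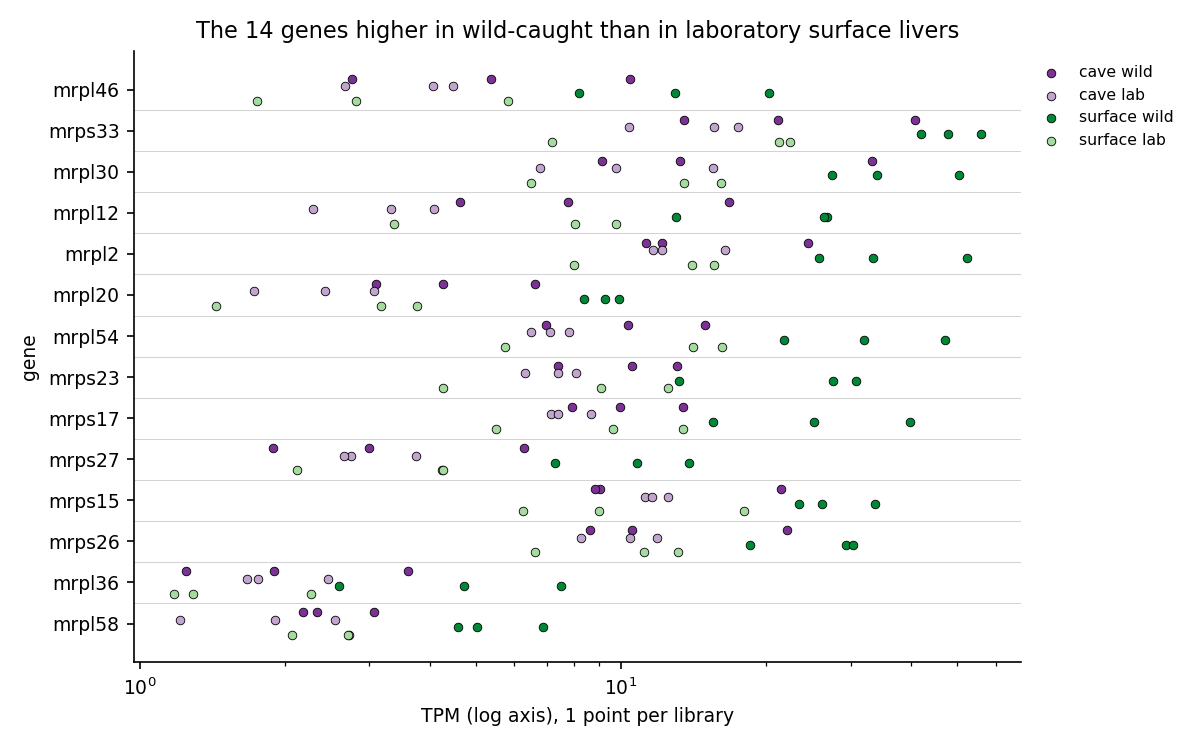
TPM on a log axis of the 14 genes that passed the test between wild-caught and laboratory surface livers, with 1 point per library in all 4 groups. In each gene the 3 surface wild points (dark green) lie to the right of the 3 surface lab points (light green), and 1 cave wild point reaches the surface wild range in mrpl46, mrpl30, mrpl12, mrps26 and mrpl36.

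The rise was spread over the ribosome. Of 47 large-subunit genes 8 passed, and of 24 small-subunit genes 6, with median differences of 0.78 and 0.85 above that of all tested genes. Of all tested genes 6.77% were called higher between these groups, the share to set beside each count given here. Among the 42 genes with a bacterial counterpart 7 passed, and among the 29 mitochondria-specific genes 7, with relative medians of 0.68 and 0.95. The 6 central protuberance genes had a relative median of 0.95 and the 6 genes in or beside the exit tunnel 0.46, but only 1 and 0 of them passed. The difference between these subsets was not tested. Genes in each of 3 equal sets by mean TPM passed, 3, 5 and 6 in the highest, middle and lowest set. The 5 genes of highest mean TPM were not among them. Their log2 differences were -0.01 for mrps25, -0.47 for mrpl41, 0.11 for MRPL49, 0.33 for mrps21 and 0.04 for mrpl57.

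The count rested on few libraries. With either surface wild library 1 or 2 left out, or surface lab library 3, 1 gene passed; without both surface wild libraries that stood apart 0 of 72 passed, when 0.473% of all tested genes were called higher. Where 1 gene passed (1.39%), all genes called higher were 2.07%, 2.26% and 2%, in the order given. The count was 6 to 9 without cave lab library 1, 2 or 3, cave wild library 3 or surface lab library 2. That is 8.33% to 12.5%, against 4.73% to 5.85% of all tested genes called higher. It was 23 without surface wild library 3 (31.9%, all genes 13.9%). Deviations of surface libraries with the same replicate number had weak positive correlations of 0.153, 0.111 and 0.271. With that number as a block 13 genes passed in the fit of 12 libraries (18.1%, all genes 7.01%). In a fit of the 6 surface libraries alone 0 passed, as without the block. The median of the 72 genes stayed above the median of all genes under each of these settings. Markers of other cells moved in the same comparison, and their part in the result was not tested. Macrophage markers summed to 189 to 234 TPM in surface wild and 135 to 212 TPM in surface lab livers, with 4 of 12 higher and 0 lower. Hepatocyte markers summed to 93600 to 105100 and 138200 to 165500 TPM, with 1 of 15 higher and 5 lower. Exocrine pancreas markers summed to 1932, 907.6 and 8550 TPM in surface wild and 1102 to 3474 TPM in surface lab livers. Biliary markers summed to 1585, 933.3 and 305.1 TPM against 554.3 to 920.9 TPM. Surface wild library 3 thus held the highest exocrine pancreas sum and the lowest biliary sum of the 12 libraries. Stellate and endothelial markers summed to 14.5 to 25.5 against 25.2 to 27.3 TPM. The 8 erythrocyte markers summed to 1889, 504.5 and 100.7 TPM in the surface wild libraries and to 118.6 to 165.1 TPM in the surface lab libraries. Surface wild libraries 1 and 2 thus stood highest. Most of each surface wild sum was nt5c3a, a nucleotidase of red cells, at 1880, 482.6 and 81.7 TPM in surface wild and 15.2 to 35.8 TPM in surface lab livers. The other 7 markers, the globin hbba2 among them, summed to 9.19, 21.9 and 19.0 TPM in surface wild and 85.1 to 149.9 TPM in surface lab livers, and of 6 erythrocyte markers tested 1 was higher and 4 lower. No marker of these lists was at 0 in all libraries. In whole liver, fewer cells of a type and less RNA per cell cannot be told apart.

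In cave livers the comparison of wild-caught with laboratory fish gave a different count on each scale. On TPM limma called 0 of 72 genes, although 3 had an unadjusted p under 0.05 (4.17%, all genes 48.1%), while 1.51% of all tested genes were called higher and 34.3% lower. The median log2 difference of the 72 was 0.17, which is 0.86 above the median of all tested genes, and 71 of 72 genes lay above that median. After median-of-ratios scaling 12 genes were higher and 0 lower (16.7%, all genes 3.75%), and 57 had an unadjusted p under 0.05 (79.2%, all genes 25.9%). On that scale the libraries did not overlap for 58 genes (80.6%, all genes 19.4%), against 6 higher (8.33%, all genes 3.18%) and 2 lower (2.78%, all genes 56.6%) on TPM. The scaled values thus lay apart for most of the 72 genes, but 12 passed, and on TPM none did. Markers of other cells moved here too, and their part was not tested. Macrophage markers summed to 48.2 to 97.1 TPM in cave wild and 206 to 330 TPM in cave lab livers, with 6 of 12 lower and 0 higher. Stellate and endothelial markers summed to 7.60 to 16.9 and 25.4 to 40.3 TPM, with 6 of 11 lower and 0 higher. Erythrocyte markers summed to 26.9 to 55.2 and 70.5 to 89.8 TPM, with 4 of 6 lower and 0 higher. None of these sums overlapped between the groups on TPM, where cave wild values lay all below for 56.6% of all tested genes. The other marker sums overlapped. Hepatocyte markers summed to 134400 to 152000 and 132800 to 169200 TPM, and biliary markers to 395 to 877 and 439.3 to 468 TPM. Exocrine pancreas markers summed to 770 to 1606 and 201.6 to 1712 TPM, and ovary and yolk markers to 551.7 to 2242 and 171.6 to 804.7 TPM. Marker sums after scaling were not compared.

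Among those 12 was mrpl12, which stood at 16.8, 4.63 and 7.75 TPM in cave wild and 2.29, 3.33 and 4.09 TPM in cave lab livers. The groups did not overlap, the TPM difference was 1.198 ± 0.47 (adjusted p = 0.0641, limma), and the scaled one was 2.03 (adjusted p = 0.0261, limma). The values of mrpl21 (ENSAMXG00000036794), a large-subunit protein with a bacterial counterpart, were 46.0, 34.0 and 29.4 TPM against 21.1, 24.6 and 19.2 TPM, a TPM difference of 0.71 ± 0.39 (adjusted p = 0.172, limma) and a scaled one of 1.67 (adjusted p = 0.0199). For mrpl20 the TPM difference was 0.705 ± 0.31 (adjusted p = 0.094, limma) and the scaled one 1.47 (adjusted p = 0.0131). The others that passed after scaling were mrpl14, mrpl17, mrpl22, mrpl34, mrpl41, mrpl58, mrps6, mrps16 and mrps21. These genes, mrpl21 included, were named after their values were seen. In the other direction, mrpl44, beside the exit tunnel, was at 12.1, 8.64 and 6.41 TPM in cave wild and 15.7, 16.3 and 14.1 TPM in cave lab livers, a difference of -0.74 ± 0.33 (adjusted p = 0.0908, limma) that became 0.18 after scaling (adjusted p = 0.77).

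Cave wild library 1 carried part of this. Without it the median of the 72 genes lay 0.53 above that of all genes, against 0.86 with it, and 0 genes passed on TPM either way. Without cave wild library 2 or surface wild library 3, 1 gene passed on TPM. The cytosolic ribosomal protein genes, whose share of the library was higher in cave wild livers, behaved differently on TPM, with 65 of 75 higher, 1 lower and a relative median of 1.49.

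**Figure D4:**
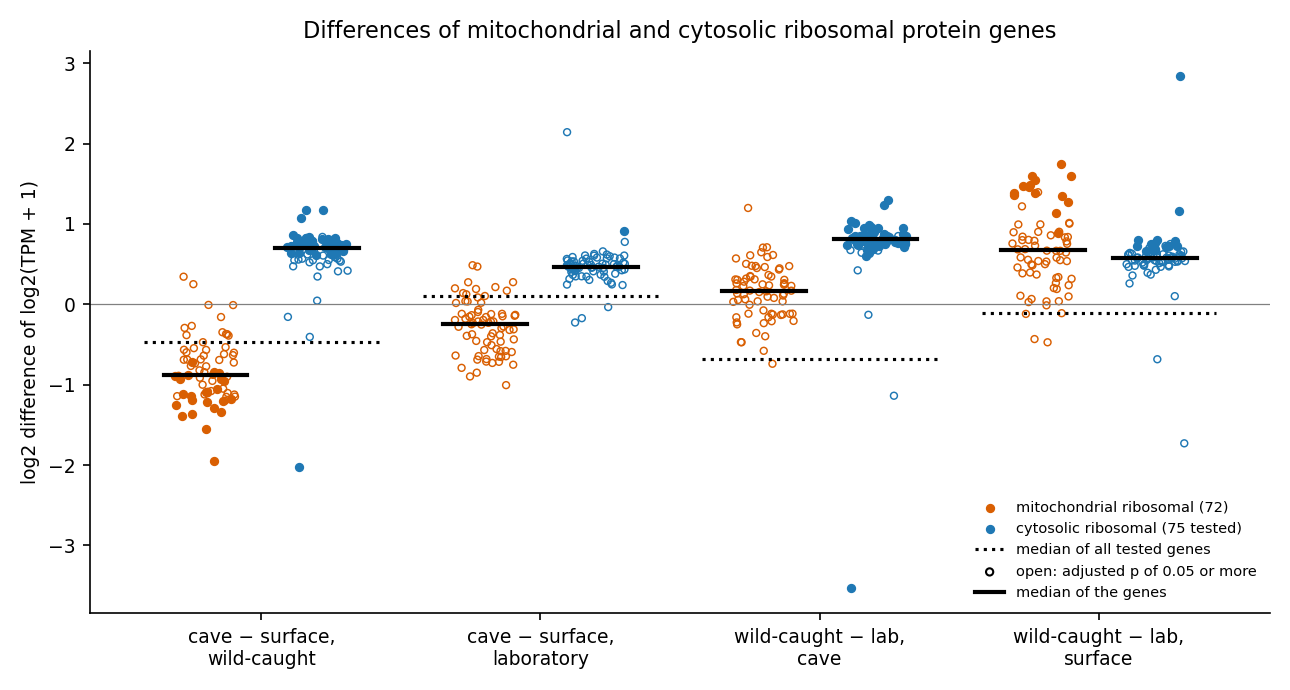
Log2 differences of log2(TPM + 1) for the 72 mitochondrial (orange) and 75 tested cytosolic (blue) ribosomal protein genes in 4 comparisons, with 1 point per gene, filled where the adjusted p was under 0.05. Solid bars are the medians of each set and dotted lines the median of all tested genes. The orange points lie mostly below the dotted line in both cave to surface comparisons and above it in both comparisons of wild-caught with laboratory fish.

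Between the wild-caught forms, these genes were lower in cave than in surface fish on TPM, but hardly more often than other genes. In limma 23 of 72 were lower and 0 higher, 31.9% against 26.5% of all tested genes called lower (5.13% higher), a share near the background. The median log2 difference was -0.88, which is 0.41 below the median of all genes (relative median -0.41), and 60 of 72 genes lay below that median. After median-of-ratios scaling limma called 0 members, 7 of which had an unadjusted p under 0.05 (9.72%, all genes 35.7%), and 17.9% of all tested genes in either direction. On TPM 36 genes (50%) had cave wild values all below the surface wild ones, against 37.2% of all tested genes. On the scaled values this held for 0 of 72 (all genes 14.4%), and 3 genes had all cave wild values above (4.17%, all genes 17.6%).

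The largest difference was in mrpl45 (ENSAMXG00000018409), the protein that ties the large subunit to the inner membrane beside the exit tunnel. It stood at 8.16, 4.76 and 6.04 TPM in cave wild and 35.2, 40.5 and 13.3 TPM in surface wild livers, a log2 difference of -1.95 ± 0.46 (adjusted p = 0.0124, limma) that was -1.34 after scaling (adjusted p = 0.051). Laboratory fish had 3.12, 4.40 and 7.20 TPM in cave and 12.7, 12.7 and 5.30 TPM in surface livers. Surface wild libraries 1 and 2 were the highest of the 12, and surface lab library 3 lay within the range of the cave libraries.

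The small-subunit gene mrps35 (ENSAMXG00000015124) passed whichever library was left out. Its values were 11.1, 8.72 and 7.83 TPM in cave wild and 30.3, 34.0 and 16.3 TPM in surface wild livers, a difference of -1.40 ± 0.32 (adjusted p = 0.0115, limma). After scaling it was -0.77 (adjusted p = 0.106). In laboratory fish mrps35 stood at 8.77, 11.2 and 13.0 TPM in cave and 15.7, 13.7 and 12.0 TPM in surface livers, which overlapped.

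Among the other genes with a known place, mrpl1 of the mobile L1 stalk, which moves with the leaving tRNA, was at 3.29, 1.15 and 1.08 TPM in cave wild and 5.86, 7.20 and 4.03 TPM in surface wild livers (-1.29 ± 0.33, adjusted p = 0.0162, limma). The pentatricopeptide repeat protein mrps27, of a family that binds RNA, stood at 6.30, 1.89 and 2.99 TPM against 10.8, 13.8 and 7.28 TPM (-1.37 ± 0.37, adjusted p = 0.0183, limma). The mitochondria-specific genes mrpl54 and mrpl42 differed by -1.55 ± 0.41 (adjusted p = 0.0185, limma) and -1.35 ± 0.42 (adjusted p = 0.0307). In none of these 4 did the wild-caught cave and surface libraries overlap on TPM, but after scaling all 4 overlapped and missed the threshold, with adjusted p from 0.113 to 0.217. Of 47 large-subunit genes 17 were lower and of 24 small-subunit genes 6, against 26.5% of all tested genes. Both subunits had a median 0.41 or 0.42 below that of all genes (relative medians -0.41 and -0.42). The count fell to 2 without cave wild library 2, to 6 without cave wild library 3, to 13 without cave lab library 3, to 4 and 1 without surface wild library 1 and 2, and to 0 without both of the latter, when 1.21% of all tested genes were called lower. With these single libraries left out, in the order given, 2.78%, 8.33%, 18.1%, 5.56% and 1.39% of the members were lower. Of all tested genes 10.6%, 15.3%, 21.9%, 10.8% and 9.65% were. Markers of other cells moved here too, and their part was not tested. Macrophage markers were lower, 8 of 12 with 0 higher, and summed to 48.2 to 97.1 TPM in cave wild against 189 to 234 TPM in surface wild livers. Hepatocyte markers summed to 134400 to 152000 against 93600 to 105100 TPM, with 3 of 15 higher and 3 lower. Erythrocyte markers summed to 26.9 to 55.2 against 100.7 to 1889 TPM, with 1 of 6 lower and 0 higher, and without nt5c3a to 9.29 to 25.9 against 9.19 to 21.9 TPM. The 2 ovary and yolk markers summed to 551.7 to 2242 against 32.6 to 116.4 TPM, with 1 higher.

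Between laboratory cave and surface livers limma called 0 of 72 genes on TPM, where 3 had an unadjusted p under 0.05 (4.17%, all genes 20.7%), and 0 after scaling, where 9 did (12.5%, all genes 19.3%). Of all tested genes 7.55% were called on TPM and 5.89% after scaling, in either direction. The genes still leaned to one side, since 61 of 72 lay below the median of all genes, with a relative median of -0.35. The largest fall was in mrps14, named after its values were seen, at -1.01 ± 0.33 (adjusted p = 0.0991, limma). After scaling it was -1.14 (adjusted p = 0.0922, limma). The cave lab values all lay below the surface lab ones for 13 genes (18.1%, all genes 8.73%) on TPM and for 31 (43.1%, all genes 16.4%) after scaling. One of these was mrps21, a small-subunit protein, at 35.9, 48.2 and 45.2 TPM in cave lab and 83.7, 68.6 and 66.8 TPM in surface lab livers, a difference of -0.75 ± 0.34 (adjusted p = 0.236, limma). Another was mrpl41, of the large subunit, at 68.5, 59.5 and 74.9 TPM against 133, 113 and 90.8 TPM (-0.71 ± 0.31, adjusted p = 0.215, limma). Cell markers differed here too, and their part was not tested. Biliary markers summed to 439.3 to 468 TPM in cave lab and 554.3 to 920.9 TPM in surface lab livers. Erythrocyte markers summed to 70.5 to 89.8 against 118.6 to 165.1 TPM. Neither sum overlapped between the groups. Macrophage markers summed to 206 to 330 against 135 to 212 TPM, which overlapped, as did the sums of the other marker lists.

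Whether the difference between forms depended on origin was asked with the interaction. On TPM limma called 0 of 72 members, 6 of which had an unadjusted p under 0.05 (8.33%, all genes 31.2%), and 5.08% of all tested genes. After scaling it called 0 members, 3 of which had such a p (4.17%, all genes 19.5%), and 2.1% of all tested genes. The median interaction of the 72 genes lay close to that of all genes (relative median -0.001), whereas that of the cytosolic ribosomal protein genes was 0.81 above it. Without surface wild library 3, 3 members passed, all lower (4.17%, all genes 20.7% lower and 2.87% higher). The comparisons within wild-caught fish and within surface fish share the surface wild libraries, so their values stand side by side and do not bear each other out.

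The members moved more evenly than genes at large. The SD across the 72 genes of their log2 differences was 0.41 between wild-caught cave and surface livers, 0.33 between laboratory cave and surface livers, 0.34 between wild-caught and laboratory cave livers and 0.50 between wild-caught and laboratory surface livers. Over all tested genes it was 1.02, 0.85, 0.76 and 1.05, and over the cytosolic ribosomal protein genes 0.38, 0.26, 0.57 and 0.43.

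The factors that build the mitochondrial ribosome were compared beside its proteins. Of 25 tested assembly factors 9 were higher and 0 lower in wild-caught than in laboratory surface livers (36%, all genes 6.77% higher), and 13 after scaling (52%, all genes 9.48%). Without both surface wild libraries that stood apart, 0 of the 25 passed. The endonuclease ybey, which trims ribosomal RNA in bacteria, stood at 17.3, 17.7 and 7.33 TPM in surface wild and 1.19, 2.39 and 0.92 TPM in surface lab livers (2.55 ± 0.51, adjusted p = 0.00973, limma). The inner-membrane protein mpv17l2 stood at 7.54, 4.80 and 2.62 TPM against 1.28, 1.46 and 0.63 TPM (1.43 ± 0.34, adjusted p = 0.0171, limma), and the large-subunit GTPase gtpbp10 at 17.9, 24.2 and 16.0 TPM against 6.88, 5.54 and 2.15 TPM (1.88 ± 0.48, adjusted p = 0.0228). None of these 3 genes overlapped between the surface groups, and without both of those libraries the differences were 1.78, 0.79 and 1.64 (adjusted p = 0.27, 0.363 and 0.308, limma). Between wild-caught cave and surface livers 16 of the 25 were lower (64%, all genes 26.5%) and 0 higher, but after scaling 1 was, mpv17l2 (-1.14, adjusted p = 0.0339, limma), and without both libraries 0 were. In cave livers 1, the pseudouridine synthase rpusd4, was higher in wild-caught fish (0.92 ± 0.33, adjusted p = 0.046, limma), against 1.51% of all tested genes. It was also higher after scaling, when 4 were (all genes 3.75%). None of the 25 passed between the laboratory groups (all genes 7.55% in either direction).

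Mitoribosomal proteins with other kinds of names, 5 in all, gave 0 calls between the surface groups. Of these, dap3 and aurkaip1 of the small subunit were lower in cave wild than in surface wild livers (all genes 26.5% lower). The values of dap3 were 20.5, 13.7 and 16.3 TPM against 43.2, 51.2 and 27.4 TPM (-1.20 ± 0.31, adjusted p = 0.016, limma). Neither gene passed after scaling (adjusted p = 0.231 for dap3 and 0.15 for aurkaip1, limma) or without both surface wild libraries that stood apart (adjusted p = 0.374 and 0.472). Among 12 translation factors, the elongation factor tsfm was higher in wild-caught fish of both forms. Of all tested genes 6.77% were called higher between the surface groups and 1.51% between the cave groups. It stood at 46.3, 30.9 and 19.2 TPM in surface wild and 9.44, 9.28 and 6.56 TPM in surface lab livers (1.74 ± 0.36, adjusted p = 0.0107, limma). In cave livers it was at 24.4, 12.2 and 15.4 TPM in wild-caught and 6.85, 7.45 and 8.24 TPM in laboratory fish (1.05 ± 0.36, adjusted p = 0.0386). Neither pair of groups overlapped, and both calls held after scaling, but without both surface wild libraries that stood apart the surface difference was 1.118 (adjusted p = 0.251, limma). The translational activator taco1, known for its role in cytochrome oxidase synthesis, was higher in wild-caught cave livers (1.01 ± 0.34, adjusted p = 0.0357, limma), also after scaling (adjusted p = 0.012). Of 17 mitochondrial tRNA synthetases 1 was higher in wild-caught surface livers, near the share of all tested genes called higher (6.77%). It was yars2, which charges tyrosine tRNA (2.07 ± 0.47, adjusted p = 0.0153, limma). This call too held after scaling (adjusted p = 0.0176, limma) and was lost without both libraries (1.55, adjusted p = 0.294).

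The nuclear genes for the respiratory chain and ATP synthase encode the subunits that pair with the products of the mitochondrial ribosome. Of 84 tested, 3 were higher and 1 lower in wild-caught than in laboratory surface livers (all genes 6.77% higher and 11.2% lower). Their relative median was 0.16, against 0.79 for the 72 genes. Without both surface wild libraries that stood apart, the relative medians were 0.58 and 0.57. In cave livers 0 were higher and 2 lower in wild-caught fish (all genes 1.51% and 34.3%). The relative median was 0.68, against 0.86 for the 72 genes. After scaling 17 were higher and 1 lower (all genes 3.75% and 3.53%). The difference between the lists was not tested. No row carried the name of a mitochondrially encoded gene in the list used, so the products themselves are not analysed here.

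Of 13 regulators linked to nuclear genes for mitochondria, 1 was higher in wild-caught surface livers (all genes 6.77%). In wild-caught cave against surface livers 5 were lower and 1 higher (all genes 26.5% and 5.13%). The transcription factor nrf1, known in mammals to bind promoters of mitochondrial genes, stood at 2.17, 1.90 and 2.11 TPM in cave wild and 14.0, 21.5 and 7.84 TPM in surface wild livers (-2.24 ± 0.32, adjusted p = 0.00181, limma). In laboratory fish it was at 3.33, 4.13 and 3.50 TPM in cave and 10.8, 9.98 and 7.58 TPM in surface livers (-1.16 ± 0.32, adjusted p = 0.0458). Every cave library lay below every surface library, and both calls held after scaling. The coactivator pprc1, a relative of PGC-1, stood at 48.0, 16.8 and 7.06 TPM in surface wild and 1.27, 0.15 and 0.01 TPM in surface lab livers (3.79 ± 0.69, adjusted p = 0.00645, limma), and at 0.70, 0.13 and 6.06 TPM in cave wild livers (-3.01 ± 0.69 against surface wild, adjusted p = 0.0115). The subunit gabpa of another such factor was at 2.28, 3.02 and 2.93 TPM in cave wild and 13.3, 12.0 and 5.65 TPM in surface wild livers (-1.53 ± 0.35, adjusted p = 0.0119, limma). All 3 differences between the wild-caught forms also passed after scaling. Without both surface wild libraries that stood apart nrf1 passed between the wild-caught forms (-1.53, adjusted p = 0.0364, limma). The difference of gabpa was then -0.84 (adjusted p = 0.359, limma) and that of pprc1 -1.76 (adjusted p = 0.327), or 2.55 between the surface groups (adjusted p = 0.189).

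**Figure D5:**
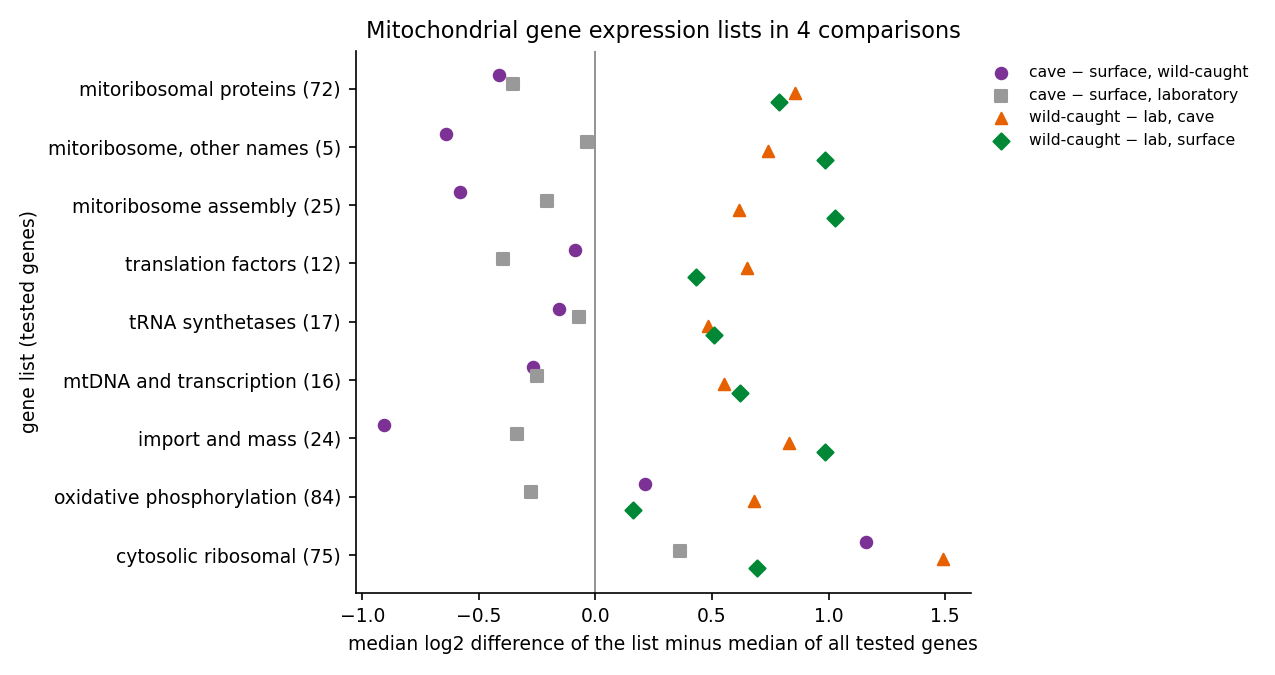
Median log2 difference of 9 gene lists minus the median of all tested genes in 4 comparisons, with the number of tested genes in brackets. The mitoribosomal proteins lie at -0.41 and -0.35 in the cave to surface comparisons and at 0.86 and 0.79 in the comparisons of wild-caught with laboratory fish, while the oxidative phosphorylation genes lie at 0.68 and 0.16 in the latter.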

How the data were processed

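The authors deposited 1 table of TPM values per gene and library, estimated with RSEM after demultiplexing with bcl2fastq 2.18 and alignment with STAR 2.6.1c, per the submitters' processing notes. The library kit marks strand, per the labels' protocols. The genome build, the annotation, the RSEM version and whether counting used strand are not stated in the sources used. All 12 columns were mapped by group and replicate number, and none was left unmapped.

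Genes that reached 1 TPM in at least 3 libraries were tested as log2(TPM + 1), a scale on which the change of low genes is understated, in R 4.3.3 with limma 3.58.1, with 4 group means over all 12 libraries, eBayes with a trend, two-sided tests, and Benjamini-Hochberg adjustment over all tested genes within each comparison at 0.05. The fit was tested on simulated data with independent noise per gene. Those data lacked the shared shifts of single libraries described above, so the test does not cover them. Differences are ± standard error with n = 3 libraries per group. The name rule for cytosolic ribosomal protein genes matched 88 rows, of which 11, the rps6k kinases and rps19bp1, were set aside, and 75 of the remaining 77 were tested.

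Named genes are up to 6 called members of largest rise and fall per comparison, the 5 highest and 5 lowest by level, members with a known place in the ribosome, and up to 3 called genes per other list. Members and lists were chosen with earlier results of these data known, and no list was tested as a set. Same-numbered libraries were checked for shared deviations: the correlations of surface wild with surface lab were 0.153, 0.111 and 0.271, and those of the other pairs of groups ran from -0.207 to 0.11. Neighbouring genes were looked up in a RefSeq gene table, which named 71 of the 72. Alternatives were other scalings and totals, a pseudocount of 0.1, filters, no trend, a replicate block, fits of fewer libraries and leaving out each library.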

Additional observations from a re-analysis of the deposited data

How the results depend on the processing

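The relative medians of the members kept their sign in each comparison of 2 groups under every alternative run. With median-of-ratios scaling they were -0.252 between the wild-caught forms and -0.371 between the laboratory forms. On that scale they were 1.035 between the cave groups and 0.806 between the surface groups. Without both surface wild libraries that stood apart, the value between the wild-caught forms was -0.206. The counts of called members were less stable. Between wild-caught cave and surface livers the 23 fell to 0 with median-of-ratios scaling. With quantile scaling 1 member passed, in the higher direction (1.39%, all genes 8.45%). The count was 6 with a library total without cytosolic ribosomal protein genes, 8 with one without the 50 most abundant genes, 13 without a filter, 1 in a fit of the 6 libraries compared, 0 without both surface wild libraries that stood apart, and 1 to 33 when leaving out 1 library. With the reduced totals and without a filter, 8.33%, 11.1% and 18.1% of members were lower (all genes 16.5%, 18.2% and 11.5%). In the fit of 6 libraries 1.39% were (all genes 11.3%), and leaving out 1 library 1.39% to 45.8% (all genes 9.65% to 32.6%). Between wild-caught and laboratory cave livers the count of 0 became 12 with median-of-ratios scaling (16.7%, all genes 3.75% higher). It was 13 with quantile scaling (18.1%, all genes 3.41%) and 1 with either reduced total (1.39%, all genes 1.31% and 1.56%). The fit of 6 libraries gave 1 (1.39%, all genes 2.09%), and leaving out 1 library 0 to 1 (all genes 0.69% to 1.81%). Between the surface groups the 14 became 2 without a filter, 0 in the fit of 6 libraries, 0 without both surface wild libraries, and 1 to 23 when leaving out 1 library. Without a filter 2.78% of the members were higher between the surface groups, against 2.45% of all tested genes. In the fit of 6 libraries 0.24% of all tested genes were. Leaving out 1 library gave 1.39% to 31.9% of the members, against 2% to 13.9% of all tested genes. A replicate block gave a surface count of 13 (18.1%, all genes 7.01%). A fit of the 6 surface libraries with that block, which was chosen after seeing the data, gave 0, and 0 of all tested genes. In the other comparisons of 2 groups same-numbered libraries had correlations from -0.183 to 0.11. With the block the count was 23 between the wild-caught forms (31.9%, all genes 25.8%). The interaction count ran from 0 to 3 when leaving out 1 library. The 3 were lower, without surface wild library 3 (4.17%, all genes 20.7%). Without a filter the relative medians were -0.765 between the wild-caught forms, 0.425 between the cave groups and -0.39 for the interaction, and leaving out 1 library gave 0.531 to 1.042 between the cave groups. With a total without cytosolic ribosomal protein genes the members' mean share was 0.190% in cave wild and 0.1345% in cave lab livers. It was 0.2631% for wild-caught and 0.1711% for laboratory surface fish. The cave wild mean then lay above that of laboratory surface fish, but below it on the full total (0.1265% against 0.148%). Libraries of these groups overlapped on either total. The cause of these changes was not tested. TPM keeps no depth, so what the read numbers limit is unknown.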
